A study of Mus musculus with 6 samples.

Results

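The 68 genes described here make ribosomes or work in the nucleolus, and they were found by their symbols in a deposited table of read counts for 4162 genes. The rule took every gene whose symbol begins with Rrp, Utp, Nop, Nol, Noc, Rpf, Gnl, Tsr, Polr1, Heatr or Npm (for most of these followed by a number), Imp3 and Imp4, the ribosomal protein names beginning with Rpl or Rps, and the genes Ncl, Bop1, Pes1, Nob1, Nip7, Gar1, Dkc1, Nat10, Bysl, Ppan and Rrs1. All 68 had enough counts to be tested, among 4118 tested genes in all. The GENCODE M21 annotation holds 160 protein-coding genes that match the rule, and 65 of them were in the table, while the other 3 members are processed pseudogenes. Of the matching protein-coding genes with other names than Rpl or Rps, 56 of 76 were in the table, against 9 of 84 with those names. Matching genes outside the table were not analysed here.

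The libraries came from naive splenic CD4+ T cells of 6 mice, purified with magnetic beads and then stimulated for 48 hours with plate-bound antibody to CD3 together with soluble antibody to CD28. The genotypes were B6.WT (WT) and B6.UTX TCD (UTX TCD), with 3 mice of each. UTX TCD mice lack UTX in T cells, and UTX, encoded by Kdm6a, is a demethylase of lysine 27 on histone H3. Both groups received the same stimulation. The sources used here do not give the promoter that drives the deletion, the deleted exons, or the age and sex of the mice. The comparison asks which genes differ in activated CD4+ T cells when UTX is missing.

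Ribosomes are built in the nucleolus. RNA polymerase I copies the ribosomal DNA into one long precursor RNA, which is cut, folded, chemically modified by small nucleolar ribonucleoproteins and packed with ribosomal proteins into a small and a large subunit. Many assembly factors bind along the way and leave again before the subunits reach the cytoplasm. A T cell that is stimulated through its receptor grows before it divides, and its nucleolus enlarges while it does so. The transcription factor MYC and the kinase mTOR are known to drive the assembly factor genes in growing cells.

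The table is a selection from the transcriptome that followed the genotype difference. Of the 4118 tested genes, 20 had a log2 fold change within 0.1 of 0, where a full table would be densest. The sign and the number of calls among the listed genes are therefore no independent evidence of a change. Column totals ran from 8363326 to 10288306 counts. They are not the depth of the libraries, and CPM, the depth-scaled count used below, is scaled to the table's own genes by TMM, a correction for composition. Kdm6a itself had 286, 281 and 281 CPM in WT and 188, 207 and 179 CPM in UTX TCD, libraries 1, 2 and 3 of each genotype in that order, as in every such sentence below. All 3 UTX TCD libraries were below all 3 WT libraries, with a log2 fold change of -0.56 ± 0.09 (standard error) and an adjusted p of 0.0029 by edgeR's quasi-likelihood test. Libraries varied more in UTX TCD than in WT, with biological coefficients of variation of 22.3% and 8.01%, and within UTX TCD replicate 2 was the most distant.

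Markers of cell types were read from the same table, and their levels in this paragraph are CPM of the column totals, without TMM. Of 9 T cell markers, Cd2 and Lck were in the table, and their summed level was 1965 to 2106 CPM in WT and 2299 to 3114 CPM in UTX TCD. Of 6 CD8 T cell and NK cell markers, Cd8b1, Klrd1 and Eomes were in the table, and their sum was 33.9 to 72.1 CPM in WT and 56.7 to 113 CPM in UTX TCD. Ighm was the one B cell marker of 6 in the table, at 423 to 526 CPM in WT and 467 to 767 CPM in UTX TCD. The 8 myeloid and 6 erythroid markers were not analysed here. Cd2, Cd8b1 and Klrd1 rose, with log2 fold changes of 1.10, 1.72 and 1.40 (edgeR adjusted p 0.0078, 0.0023 and 0.015). Lck, Eomes and Ighm did not pass, at -0.13, 0.13 and 0.38, and Lck was lower in every UTX TCD library than in any WT library. What part these cells have in the values below was not tested. In RNA from a whole population, fewer cells of a type and less RNA of a gene per cell cannot be told apart.

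Across the 68 genes, 27 fell in UTX TCD cells, 0 rose and 41 did not pass the test at an adjusted p under 0.05 in edgeR. Among all tested genes 27.0% fell, 41.1% rose and 68.1% were called in either direction. That split of 1111 that fell and 1692 that rose depended on the scaling, with 725 and 1742 by upper quartile and 1832 and 1547 with the empty point of the fold changes set to 0. At an unadjusted p under 0.05, 37 members were lower and 1 was higher (Rpl17-ps10), and DESeq2 called 29 lower and 3 higher (Nop53, Rps7 and Rpl17-ps10). The median log2 fold change of the members was -0.32, against -0.15 over all tested genes, and 62 of 68 had a negative value. In 56 members every UTX TCD library lay below every WT library, and in 0 every UTX TCD library lay above, where the shares over all tested genes were 44.0% and 41.8%. The largest fall was -2.19 in a pseudogene with few counts, and the highest value was 0.40.

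The number of calls changed with each library left out. Without WT replicate 1, 2 or 3 the number of members that fell was 4, 2 and 7, while no called fold change moved by more than 1.5 times and the median stayed at -0.31, -0.32 and -0.33. Without UTX TCD replicate 1, 2 or 3 it was 48, 47 and 18. Over all tested genes the number that fell ran from 351 to 1458 under the same 6 omissions. Rrp9 and Tsr2 were the 2 of 27 genes whose call held with each library left out and in every other alternative that was run. UTX TCD replicate 2 had the lowest value of its genotype in 59 of 68 members, and over the 4118 tested genes it was the lowest in 1759 and the highest in 1643. Without it the median log2 fold change was -0.20, and 11 called genes moved by more than 1.5 times (Rrp15, Nop16, Bop1, Rrp1b, Noc3l, Rrp12, Nol10, Noc4l, Tsr1, Utp4 and Imp4). Without UTX TCD replicate 1, 6 members passed the test as higher.

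Levels across the UTX TCD libraries are given apart for the assembly factors and the ribosomal proteins. Over the 56 members without Rpl or Rps names, the median log2 ratio to the WT mean was -0.15, -0.64 and -0.25 in UTX TCD replicates 1, 2 and 3. The 12 members with those names had medians of -0.22, -0.18 and -0.15. As a share of all counts in the table, the 56 genes made up 4.78%, 4.76% and 4.63% in WT and 4.37%, 3.23% and 4.16% in UTX TCD. The 12 genes made up 0.514%, 0.532% and 0.538% in WT and 0.460%, 0.557% and 0.607% in UTX TCD. The shares of the 56 genes did not overlap between the genotypes, and those of the 12 genes did.

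**Figure D1:**
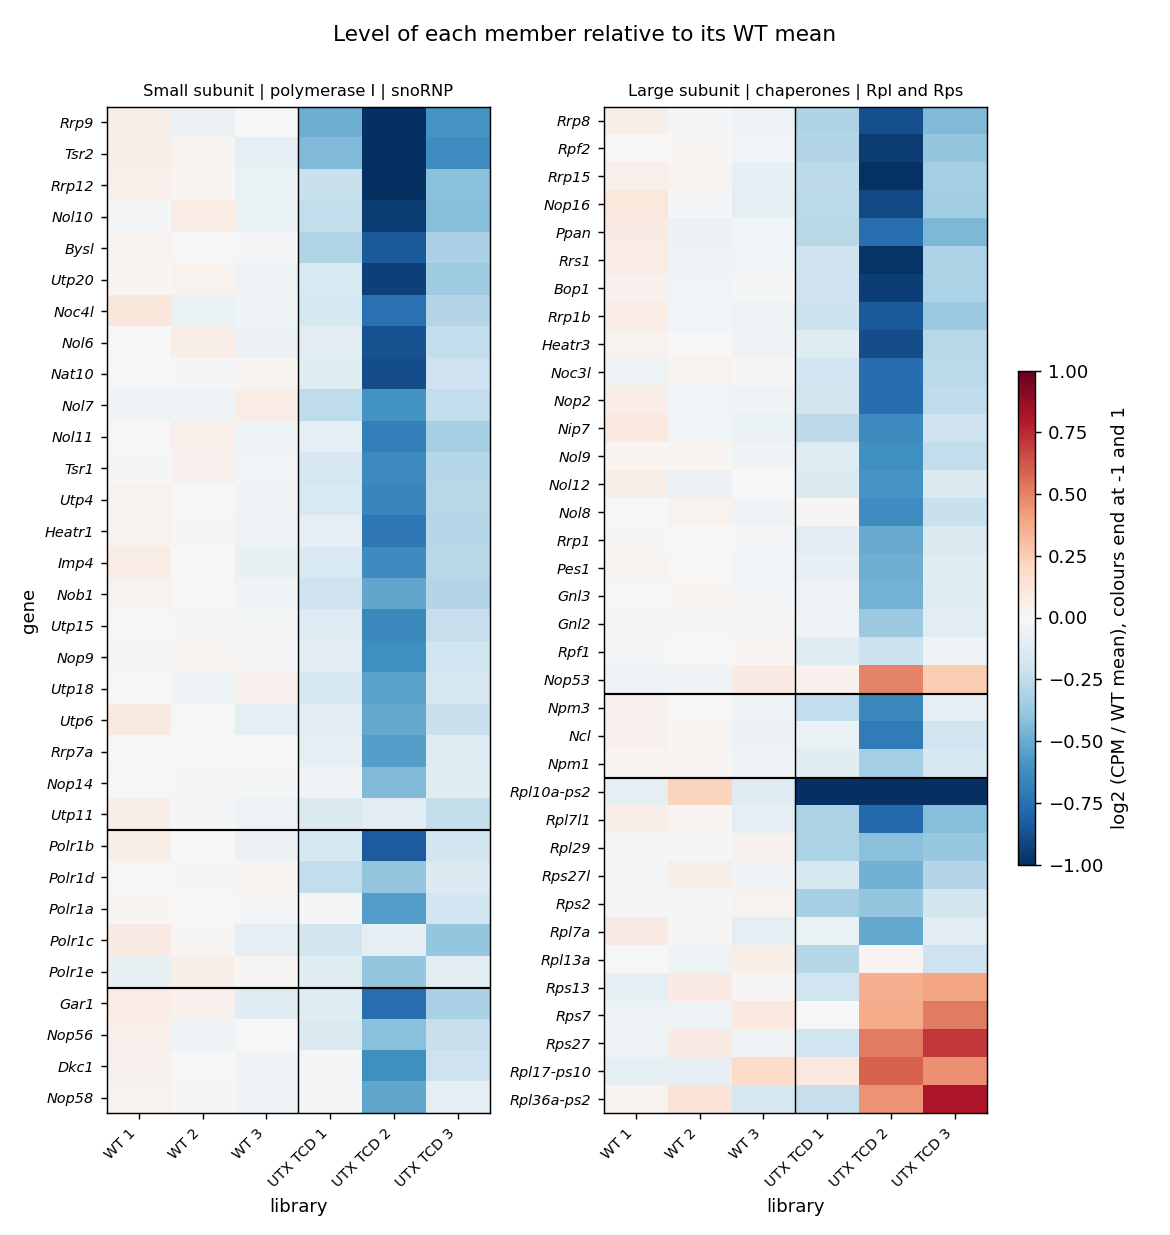
Each line of the heat map is 1 of the 68 genes, grouped by role, and each column is 1 library, with the log2 ratio of its TMM-scaled CPM to the mean of the 3 WT libraries in colour (blue lower, red higher, colours ending at -1 and 1). Most assembly factors are blue in all 3 UTX TCD libraries and deepest in replicate 2, while 5 ribosomal protein genes and Nop53 are red in replicates 2 and 3.

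Promoters are shown for a few members because the E-box, described next, was more frequent in the members' windows than in those of all tested genes. It was not the only such motif, since CCGGAAG and CGCGAGA were also more frequent there. No window shown holds CGCGAGA. RefSeq promoters (GRCm38.p6, 250 bases before to 50 after each annotated start) matched 54 of the members with 59 windows. The E-box CACGTG, which MYC and the MXD proteins bind as partners of MAX and which other factors bind too, was in 22.0% of member windows, 10.7% of windows of tested genes and 7.15% of all windows. CCGGAAG, letters of the kind that ETS factors bind, was in 33.9%, 15.7% and 8.86%. CGCGAGA was in 15.3%, 4.34% and 2.56%, the GC box GGGCGG in 66.1%, 61.6% and 35.7%, and TATAAA in 10.2%, 7.88% and 13.6%. Each motif was searched on both strands, and matches overlapped in 1 window (GGGCGG with CCGGAAG). In the shorter window from 100 bases before the start, CACGTG was in 16.9%, 6.72% and 4.35%. There CCGGAAG was in 32.2%, 11.7% and 6.59%, and CGCGAGA in 13.6%, 2.85% and 1.70%. GGGCGG was in 47.5%, 51.9% and 28.8% of the shorter windows, and TATAAA in 3.39%, 3.58% and 6.94%. Those last 2 motifs were thus not more frequent in members than in tested genes there. Shown 5′ to 3′ on the gene's strand are 4 assembly factor promoters with an E-box and that of the ribosomal protein gene Rps27. Of the 4, Rpf2, Utp4 and Tsr2 fell, while Nop2 did not pass (log2 fold change -0.38, edgeR adjusted p 0.051). Capitals mark matches of CACGTG or of CCGGAAG on either strand. Rps27 had a positive log2 fold change and holds neither motif. Rrp9, Rrp8, Rrp1b, Nob1, Bysl, Noc4l, Nop16, Nop56, Polr1d and Rpl7l1 fell and also hold neither. Of other genes with positive values, Rps13 holds neither and Rps7 holds CCGGAAG. Rpf2 is at chr10:40246930-40247229 on the minus strand, Utp4 at chr8:106893390-106893689 on the plus strand, Nop2 at chr6:125131633-125131932 on the plus strand, Tsr2 at chrX:151096494-151096793 on the minus strand and Rps27 at chr3:90213599-90213898 on the minus strand.
Rpf2: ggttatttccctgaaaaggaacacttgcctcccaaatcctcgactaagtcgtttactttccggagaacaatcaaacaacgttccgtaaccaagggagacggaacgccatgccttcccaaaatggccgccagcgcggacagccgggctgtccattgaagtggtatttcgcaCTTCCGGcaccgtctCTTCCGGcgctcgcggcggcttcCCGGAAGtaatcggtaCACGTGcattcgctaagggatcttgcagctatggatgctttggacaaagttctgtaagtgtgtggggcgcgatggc
Utp4: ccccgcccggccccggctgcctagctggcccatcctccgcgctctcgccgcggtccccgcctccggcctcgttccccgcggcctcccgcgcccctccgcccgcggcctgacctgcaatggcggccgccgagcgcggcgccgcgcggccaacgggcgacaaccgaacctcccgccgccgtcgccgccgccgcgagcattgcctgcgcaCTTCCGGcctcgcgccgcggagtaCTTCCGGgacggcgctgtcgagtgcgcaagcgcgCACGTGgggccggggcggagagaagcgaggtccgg
Nop2: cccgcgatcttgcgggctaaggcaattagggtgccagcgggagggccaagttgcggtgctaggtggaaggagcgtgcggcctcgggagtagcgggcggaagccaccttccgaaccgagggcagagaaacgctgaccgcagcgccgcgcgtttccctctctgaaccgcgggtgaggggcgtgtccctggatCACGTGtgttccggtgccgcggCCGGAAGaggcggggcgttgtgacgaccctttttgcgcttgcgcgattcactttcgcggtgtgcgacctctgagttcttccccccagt
Tsr2: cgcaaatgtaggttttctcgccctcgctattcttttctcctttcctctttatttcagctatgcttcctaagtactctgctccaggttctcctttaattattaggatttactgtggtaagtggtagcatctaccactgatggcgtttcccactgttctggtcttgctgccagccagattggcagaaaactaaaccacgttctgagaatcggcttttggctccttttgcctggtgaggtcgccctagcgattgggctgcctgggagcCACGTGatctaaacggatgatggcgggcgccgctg
Rps27: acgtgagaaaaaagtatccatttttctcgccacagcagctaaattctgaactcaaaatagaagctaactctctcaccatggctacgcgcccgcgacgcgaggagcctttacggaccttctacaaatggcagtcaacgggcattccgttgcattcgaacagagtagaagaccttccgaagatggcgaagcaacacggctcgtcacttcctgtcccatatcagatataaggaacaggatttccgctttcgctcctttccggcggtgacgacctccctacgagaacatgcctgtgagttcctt
The E-box begins 26 bases before the start in the Rpf2 window shown and 60 before it in Nop2, and 15 bases after it in Utp4 and Tsr2. Rpf2 has another annotated start, and the E-box begins 34 bases after that one. Of the 12 members with CACGTG in a window 5 fell, with a median log2 fold change of -0.35. Of the 42 with a window and no match 18 fell, with a median of -0.31. No test of the difference was made. Of all tested genes 27.0% fell, and their median was -0.15.

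The small subunit is matured by the U3 small nucleolar RNA, the UTP proteins and a set of late factors. All 23 members with this role had lower values in every UTX TCD library than in any WT library, as did 44.0% of all tested genes. By the test, which called 27.0% of all tested genes lower, 11 fell (Rrp9, Tsr2, Rrp12, Nol10, Bysl, Noc4l, Nol7, Tsr1, Utp4, Imp4 and Nob1) and 12 did not pass, and the median log2 fold change was -0.35. The number that fell was 2 without each WT library in turn, and 20, 20 and 6 without UTX TCD replicate 1, 2 and 3. The median was -0.22 without UTX TCD replicate 2.

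Rrp9, on chromosome 9 at 106475963 to 106485424 on the plus strand, encodes the protein that marks the U3 particle. Its level was 383, 353 and 369 CPM in WT and 263, 178 and 244 CPM in UTX TCD. The UTX TCD libraries were all below the WT libraries, replicate 2 furthest, and the log2 fold change was -0.69 ± 0.14 with an adjusted p of 0.0077. Without UTX TCD replicate 2 it was -0.55. Tsr2, on chromosome X at 151087094 to 151096543 on the minus strand, encodes the carrier that delivers a ribosomal protein to the small subunit. It had 208, 204 and 188 CPM in WT and 147, 98.1 and 129.7 CPM in UTX TCD, with no overlap between the genotypes. It fell by 0.68 on the log2 scale (standard error 0.15, edgeR adjusted p 0.0085), and by 0.54 without UTX TCD replicate 2. Exons of Tsr2 share 1151 bases with Fgd1 on the opposite strand, and the sources used here do not say whether the counting used strand.

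Rrp12, a repeat protein needed for export and late cutting of the small subunit, had 504, 491 and 462 CPM in WT and 417, 225 and 363 CPM in UTX TCD. Replicate 2 was far below the other UTX TCD libraries, though none reached the WT range. The log2 fold change was -0.54 ± 0.20 (edgeR adjusted p 0.046), and -0.33 without UTX TCD replicate 2. Nob1, the enzyme that makes the last cut of the small subunit RNA, fell by 0.33 ± 0.10 on the log2 scale (edgeR adjusted p 0.023). Bysl, a factor of the late precursor, fell by 0.47 ± 0.14 (edgeR adjusted p 0.025), and its exons share 361 bases with Ccnd3 on the opposite strand. All 3 calls were lost without WT replicate 1, 2 or 3, and that of Rrp12 also without UTX TCD replicate 3.

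Heatr1 and Utp20 encode long repeat proteins that scaffold the early precursor, and Nat10 encodes the enzyme that acetylates cytidines of ribosomal RNA. Heatr1, the small subunit factor with most counts, had 1096, 1080 and 1035 CPM in WT and 999, 652 and 877 CPM in UTX TCD. Utp20 had 1048, 1058 and 998 CPM in WT and 929, 541 and 809 CPM in UTX TCD, and Nat10 had 513, 508 and 519 CPM in WT and 472, 278 and 446 CPM in UTX TCD. In each of these genes UTX TCD replicate 2 was well below replicates 1 and 3, which lay closer to the WT range without reaching it. None passed the test: the log2 fold changes were -0.34 ± 0.15, -0.45 ± 0.18 and -0.37 ± 0.18, with adjusted p-values of 0.065, 0.055 and 0.096 by edgeR. The values shrank to -0.20 for Heatr1, -0.26 for Utp20 and -0.17 for Nat10 without UTX TCD replicate 2, and all 3 passed the test then, as they did without replicate 1.

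Large subunit factors process its RNAs and assemble its protein shell. Of 21 members, 9 fell (Rrp8, Rpf2, Rrp15, Nop16, Ppan, Bop1, Rrp1b, Noc3l and Nip7) and 12 did not pass, with a median log2 fold change of -0.38 and values from -0.53 to 0.27. In 19 the genotypes did not overlap and UTX TCD was lower. Over all tested genes 27.0% fell and 44.0% were lower without overlap, in a table selected on the genotype difference. The number that fell was 0, 0 and 2 without WT replicate 1, 2 and 3 and 15, 14 and 6 without UTX TCD replicate 1, 2 and 3. The median was -0.22 without UTX TCD replicate 2.

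Rrp8 encodes a methyltransferase of the large subunit RNA. Its level was 284, 272 and 264 CPM in WT and 221, 148 and 201 CPM in UTX TCD. No UTX TCD library reached the WT range. The log2 fold change was -0.53 ± 0.14 (edgeR adjusted p 0.018), a call lost without WT replicate 1 or 2, and its exons share 355 bases with Ilk on the opposite strand. Bop1 and Pes1 encode partners in a complex that matures the large subunit RNAs. Bop1 had 602, 572 and 578 CPM in WT and 506, 303 and 468 CPM in UTX TCD, and Pes1 had 455, 450.2 and 438 CPM in WT and 423, 319 and 411 CPM in UTX TCD. Bop1 fell with a log2 fold change of -0.46 ± 0.18 (adjusted p 0.049), which was -0.27 without UTX TCD replicate 2 and lost its call without any WT library or UTX TCD replicate 3. Pes1 had -0.22 ± 0.12 (adjusted p 0.11) and did not pass, with -0.11 without UTX TCD replicate 2. Whether the change of Bop1 differs from that of Pes1 was not tested.

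Rpf2 and Rrs1 encode a pair of proteins that bring the 5S RNA particle into the large subunit. Rpf2 fell by 0.51 ± 0.16 on the log2 scale (edgeR adjusted p 0.026), and without any one WT library it did not pass. Rrs1 had 354, 327 and 330.0 CPM in WT and 292, 171 and 272 CPM in UTX TCD. The genotypes did not overlap, and the log2 fold change of -0.46 ± 0.19 had an adjusted p of 0.055. Without UTX TCD replicate 2 it was -0.26 and passed at 0.011. Rrp1, the large subunit factor with most counts, had 1101, 1087 and 1080 CPM in WT and 1015, 768 and 983 CPM in UTX TCD and a log2 fold change of -0.24 ± 0.11 (adjusted p 0.083).

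Nop53, a factor that recruits the exosome to trim the 5.8S RNA, was the one large subunit gene with a positive value. It had 578, 576 and 626 CPM in WT and 612, 835 and 705 CPM in UTX TCD. Here UTX TCD replicates 2 and 3 were above all WT libraries, and replicate 1 was within their range. The log2 fold change was 0.27 ± 0.12 with an adjusted p of 0.067, and 0.38 with 0.020 without UTX TCD replicate 1. Replicate 2, the lowest UTX TCD library for most members, was the highest for this gene.

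**Figure D2:**
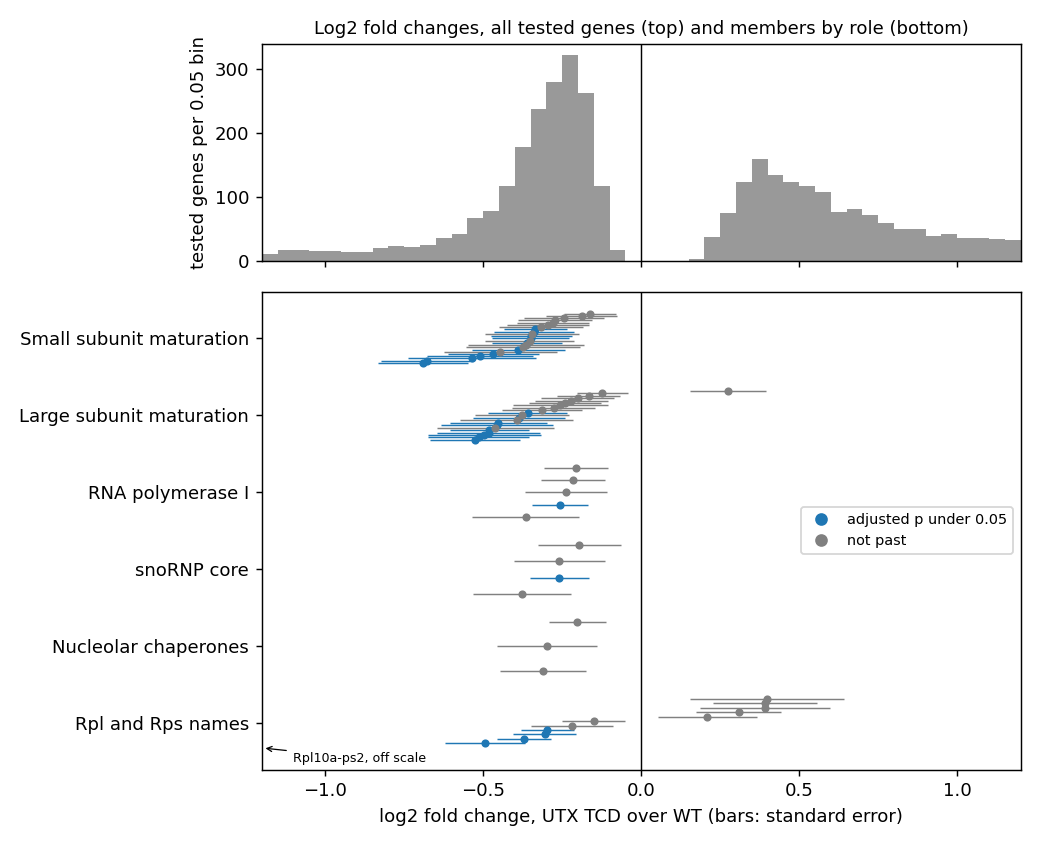
The upper panel is a histogram of the log2 fold changes (UTX TCD over WT) of all tested genes within the plotted range, with its empty zone just above 0; in the lower panel each point is 1 member with its standard error, by role, blue where it passed an adjusted p under 0.05 in edgeR and grey where it did not, and Rpl10a-ps2 is off the scale. All 23 small subunit factors lie below 0, and the points above 0 are Nop53 and 5 ribosomal protein genes.

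RNA polymerase I transcribes the ribosomal DNA, and 5 members encode its subunits. Polr1d fell, the other 4 did not pass, and the median log2 fold change was -0.24. That compares with a fall in 27.0% of all tested genes and a median of -0.15. Polr1d, a subunit shared with RNA polymerase III, had 267, 264 and 270.5 CPM in WT and 225, 203 and 243 CPM in UTX TCD. No UTX TCD library reached the WT range, and the log2 fold change was -0.26 ± 0.09 (edgeR adjusted p 0.036). The call was lost without any one WT library, in DESeq2, with RLE or upper-quartile scaling and with the replicate block. Polr1a and Polr1b encode the 2 large subunits that form the catalytic centre. Polr1a had 804, 793 and 784 CPM in WT and 782, 543 and 694 CPM in UTX TCD, with UTX TCD replicate 1 just under the WT range. Polr1b had 498, 476 and 459.8 CPM in WT and 425, 269 and 419.7 CPM in UTX TCD. Their log2 fold changes were -0.24 ± 0.13 and -0.37 ± 0.17, with adjusted p-values of 0.12 and 0.079 by edgeR. These values were -0.11 and -0.19 without UTX TCD replicate 2, and the median of the 5 genes was also -0.19. The number of subunit genes that fell was 0 without each WT library in turn and 3, 3 and 1 without UTX TCD replicate 1, 2 and 3.

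Small nucleolar ribonucleoproteins guide methylation (box C/D, with Nop56 and Nop58) and pseudouridylation (box H/ACA, with Dkc1 and Gar1) of ribosomal RNA. Of these 4 genes Nop56 fell, and of all tested genes 27.0% did. Nop56 had 1002, 934 and 959.5 CPM in WT and 873, 723 and 823 CPM in UTX TCD. The genotypes did not overlap, and the log2 fold change was -0.26 ± 0.09 (edgeR adjusted p 0.039). Nop58 had 1304, 1285 and 1235 CPM in WT and 1260, 888 and 1192 CPM in UTX TCD, with UTX TCD replicate 1 inside the WT range. Dkc1, the pseudouridine synthase, had 1032, 1007 and 974 CPM in WT and 993, 656 and 869 CPM in UTX TCD, and Gar1 had 447, 438 and 390.5 CPM in WT and 389.8, 252 and 339.8 CPM in UTX TCD. Replicate 1 of UTX TCD lay inside the WT range for Dkc1 and marginally under it for Gar1, and replicate 2 was far below in both. The log2 fold changes of Nop58, Dkc1 and Gar1 were -0.20 ± 0.13, -0.26 ± 0.14 and -0.38 ± 0.16, with adjusted p-values of 0.19, 0.12 and 0.058. They were -0.06, -0.12 and -0.23 without UTX TCD replicate 2. The call of Nop56 was lost without any WT library or UTX TCD replicate 3. Without each WT library 0 of the 4 fell, and without UTX TCD replicate 1, 2 and 3 the numbers were 3, 2 and 0. The median was -0.26, and -0.15 without UTX TCD replicate 2.

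Nucleolin (Ncl) and nucleophosmin (Npm1) are abundant nucleolar proteins that bind ribosomal RNA and histones, and Npm3 belongs to the nucleophosmin family. Ncl, on chromosome 1 at 86344719 to 86359400 on the minus strand, had 14778, 14550 and 13799 CPM in WT and 13724, 8841 and 12509 CPM in UTX TCD. That was 1.45%, 1.44% and 1.38% of all counts in the WT columns and 1.36%, 0.907% and 1.26% in the UTX TCD columns. The genotypes did not overlap, but replicate 1 lay close under the WT range, and the log2 fold change of -0.30 ± 0.16 had an adjusted p of 0.11 by edgeR, and was -0.14 without replicate 2. Npm1, on chromosome 11 at 33152287 to 33163206 on the minus strand, had 6528, 6550 and 6279 CPM in WT and 5935, 5109 and 5784 CPM in UTX TCD. Npm3 had 366, 356 and 343 CPM in WT and 299, 227 and 332 CPM in UTX TCD. Both were lower in every UTX TCD library than in any WT library, with log2 fold changes of -0.20 ± 0.09 and -0.31 ± 0.14 and adjusted p-values of 0.071 and 0.069. Thus 0 of the 3 genes passed in edgeR, where 68.1% of all tested genes did, 0 had an unadjusted p under 0.05, and DESeq2 called 0. Without each WT library 0 passed, and without UTX TCD replicate 1, 2 and 3 the numbers were 2, 2 and 1. The median log2 fold change was -0.30, and -0.15 without UTX TCD replicate 2. Per kilobase of exon, Npm1 had the highest level of all members, at 2421 CPM per kilobase in WT, and Ncl followed with 1411. The length used was the union of exons over all annotated transcripts, 2665 bases for Npm1 and 10188 for Ncl. This order depends on those lengths, since Ncl had the higher CPM, and which transcripts were expressed was not tested.

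**Figure D3:**
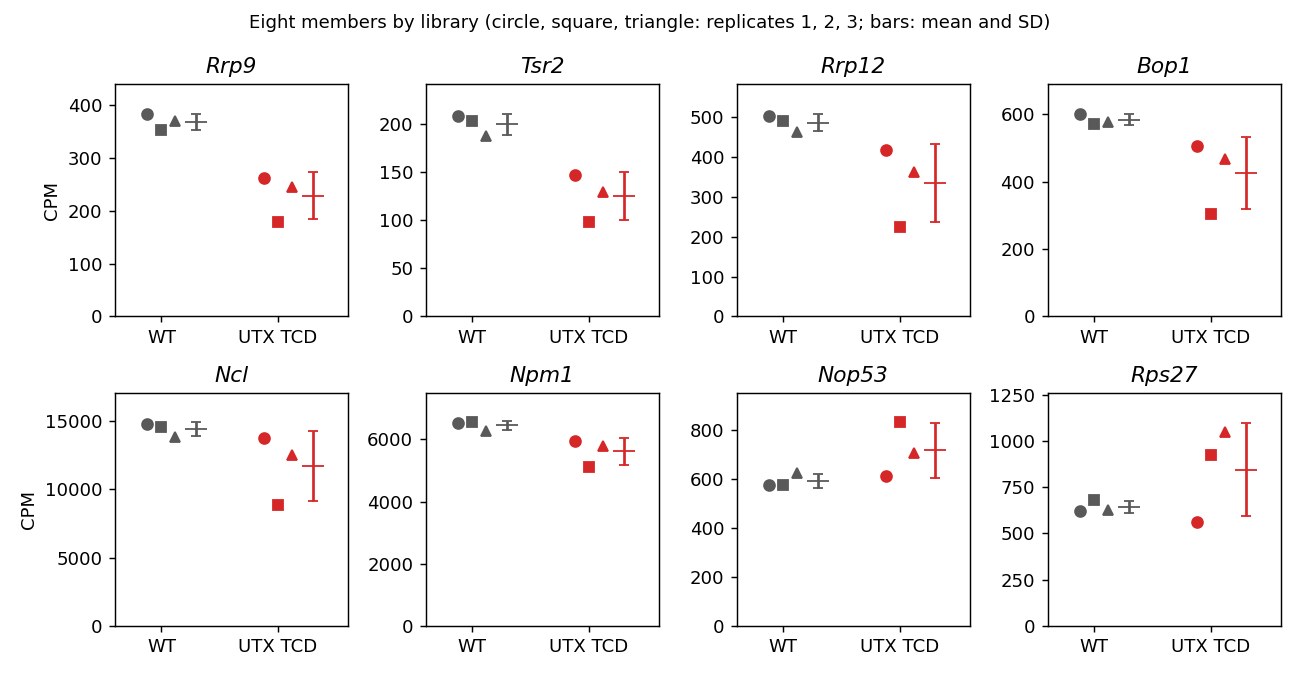
Each panel shows the TMM-scaled CPM of 1 gene in the 3 WT (grey) and 3 UTX TCD (red) libraries, with a circle, square and triangle for replicates 1, 2 and 3 and the mean and SD of each group beside them. Rrp9 and Tsr2 are lower in all 3 UTX TCD libraries by a wide margin, while Ncl separates mainly through replicate 2.

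The 12 genes with ribosomal protein names lay on both sides of 0. In edgeR 5 fell (Rpl10a-ps2, Rpl7l1, Rpl29, Rps27l and Rps2), 0 rose and 7 did not pass, with a median of -0.18. The same test called 27.0% of all tested genes lower and 41.1% higher, and their median was -0.15. At an unadjusted p under 0.05, 5 were lower and 1 was higher, and DESeq2 called 5 lower and 2 higher. The genotypes overlapped in 7. Rps2, a small subunit protein and the member of this role with most counts, had 1279, 1277 and 1329 CPM in WT and 1029, 992 and 1141 CPM in UTX TCD. Rpl29, a large subunit protein encoded on chromosome 9 at 106429454 to 106431568 on the plus strand, had 101, 101 and 105 CPM in WT and 82.1, 76.2 and 78.4 CPM in UTX TCD. In both genes the 3 UTX TCD libraries lay close together below the WT libraries, and replicate 2 was the lowest by a small margin. The log2 fold changes were -0.30 ± 0.08 and -0.37 ± 0.09, with adjusted p-values of 0.02 and 0.011 by edgeR. The call of Rps2 was lost without any WT library, and that of Rpl29 without WT replicate 2.

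Rpl7l1, a relative of a large subunit protein that acts in assembly, had 642, 621 and 576 CPM in WT and 493, 358 and 456 CPM in UTX TCD. Replicate 2 was lowest, as in most assembly factors, and the log2 fold change was -0.49 ± 0.13 (edgeR adjusted p 0.015), a call lost without WT replicate 1 or 2. The pseudogene Rpl10a-ps2 had 76 counts in all libraries together, with a log2 fold change of -2.19 ± 0.57 (adjusted p 0.016) that did not pass without WT replicate 2. Its reads may belong to Rpl10a or its other copies, so its value is uncertain. The same holds for Rpl17-ps10 and Rpl36a-ps2. The number that fell was 2, 0 and 3 without WT replicate 1, 2 and 3 and 5, 6 and 4 without UTX TCD replicate 1, 2 and 3.

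The genes Rps27, Rps7, Rps13, Rpl17-ps10 and Rpl36a-ps2 had positive values. Rps27, a small subunit protein, had 623, 679.7 and 629 CPM in WT and 563, 921 and 1048 CPM in UTX TCD. Rps7 had 1004, 1005 and 1115 CPM in WT and 1038, 1342 and 1487 CPM in UTX TCD, and Rps13 had 664, 749 and 714 CPM in WT and 616, 912 and 931 CPM in UTX TCD. In all 3 genes UTX TCD replicates 2 and 3 were above every WT library and replicate 1 was not. None passed the test, with log2 fold changes of 0.39 ± 0.20, 0.31 ± 0.14 and 0.21 ± 0.16 and adjusted p-values of 0.11, 0.068 and 0.23 by edgeR. Without UTX TCD replicate 1 all 5 passed as higher, at log2 fold changes of 0.62 for Rps27, 0.45 for Rps7 and 0.38 for Rps13. Other copies of these ribosomal protein genes exist in the genome. The sources used here do not say how reads that match several places were treated. That limit holds for every gene with a ribosomal protein name, those that fell included.

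Some members carry annotated small nucleolar RNAs on the same strand, between the start and end of the gene. The annotation places at least 1 in 12 of the 68 genes (17.6%), against 81 of 4077 tested genes with 1 gene model (1.99%). Nop56 holds 5, Nop58 and Rpl13a hold 4 each, and Ncl, Gnl3 and Rpl7a hold 3 each. Of the 12 host genes 4 fell, with a median log2 fold change of -0.24, and of the 56 others 23 fell, with a median of -0.35. Among the 81 tested host genes 23 fell, with a median of -0.21. Among the 4077 tested genes with 1 gene model 1105 fell, with a median of -0.15. Whether hosts differ from other members was not tested. Exons of 23 members overlap a gene on the opposite strand, and their counts are uncertain to that extent if strand was ignored.

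A list of 141 other ribosome biogenesis genes that the symbol rule does not take was read in the same fit. Of these 96 were tested, 45 fell, 1 rose and 50 did not pass, and the median log2 fold change was -0.31. The genotypes did not overlap, with UTX TCD lower, in 85, and UTX TCD replicate 2 was the lowest of its genotype in 91. The matching figures over all tested genes were 27.0% that fell, 41.1% that rose, 44.0% lower without overlap and a median of -0.15. The number that fell was 3, 3 and 9 without WT replicate 1, 2 and 3 and 79, 66 and 32 without UTX TCD replicate 1, 2 and 3. By role, 14 of 27 small subunit factors, 16 of 41 large subunit factors, 3 of 8 polymerase I factors, 5 of 11 exosome and nuclease genes and 7 of 9 genes of small nucleolar RNA hosts and their assembly fell. Nle1, a large subunit assembly factor, fell by 0.54 ± 0.10 on the log2 scale (edgeR adjusted p 0.0053), and Znrd1, a polymerase I subunit under its older symbol, fell by 0.62 ± 0.12 (edgeR adjusted p 0.0058). These calls held with each library left out and in every other alternative. Pno1, a partner of Nob1 in the late small subunit, fell by 0.76 ± 0.18 (edgeR adjusted p 0.012) and kept its call with each library left out. Rexo2, an exonuclease of very short RNAs, was the 1 gene that rose (log2 fold change 0.28 ± 0.09, edgeR adjusted p 0.026), and its call was lost without any WT library or UTX TCD replicate 3.

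Of 20 genes listed for MYC and mTOR, 9 were in the table, and Myc itself was not analysed here. Odc1, the first enzyme of polyamine synthesis and a known MYC target, had 1294, 1254 and 1205 CPM in WT and 905, 905 and 754 CPM in UTX TCD. Mxd4, which competes with MYC for MAX, had 25.4, 36.0 and 34.5 CPM in WT and 55.2, 79.3 and 65.1 CPM in UTX TCD. Neither gene's genotypes overlapped, with Odc1 lower and Mxd4 higher in UTX TCD, and the log2 fold changes were -0.55 ± 0.10 and 1.06 ± 0.19 (adjusted p 0.0047 and 0.0049, edgeR). Rps6ka1, a kinase of the MAPK pathway, fell by 0.43 ± 0.10 on the log2 scale (edgeR adjusted p 0.01). The calls of all 3 held with each library left out. Chosen after their values were seen, Mxi1 and Mxd1, of the same family as Mxd4, rose by 1.06 ± 0.26 and 0.87 ± 0.21 (edgeR adjusted p 0.013 and 0.012), and Srm, which makes spermidine, fell by 0.64 ± 0.20 (edgeR adjusted p 0.025). Mxi1 was at 0.67 without UTX TCD replicate 2 and kept its call. The call of Mxd1 was lost without WT replicate 2 and that of Srm without any WT library. The remaining 3 (Mlx, Rptor and Cad) did not pass, and the median of the 9 genes was -0.25. Of the 9 genes 3 fell and 3 rose, where 27.0% and 41.1% of all tested genes did. The number that fell was 2 without each WT library and 5, 5 and 4 without UTX TCD replicate 1, 2 and 3.

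**Figure D4:**
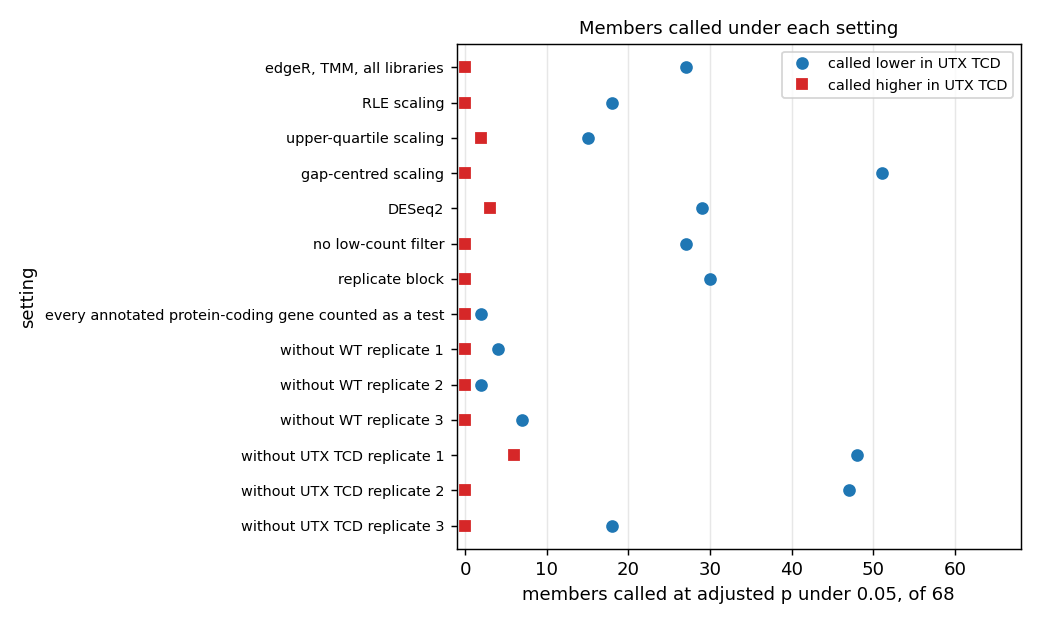
Points give the number of the 68 genes that passed an adjusted p under 0.05 as lower (blue circles) or higher (red squares) in UTX TCD, for the edgeR fit as reported, for each alternative and with each library left out. The count of genes that fell runs from 2 to 51, and genes that rose appear under 3 settings.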

How the data were processed

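RNA from 3 WT and 3 UTX TCD mice was sequenced, and the authors deposited raw read counts per gene, not normalized. The submitters' processing notes name mm10 as the build and list HISAT2 and HTSeq beside FastQC, while versions, annotation and strand setting are not stated in the labels. One table of 4162 genes was used, with 1 column for each library, tied to its sample by genotype and number. The listed genes are a selection that followed the genotype difference, by an unstated rule, so CPM are relative to the listed genes and adjusted p-values count too few tests.

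Counts were tested in edgeR 4.0.16 (R 4.3.3) by the quasi-likelihood F test with genotype as the only term, TMM scaling, edgeR's default filter on low counts (at least 10 a gene in enough libraries and 15 in all, which left out 44 genes) and Benjamini-Hochberg adjustment over 4118 genes. Genes with an adjusted p under 0.05 were called. Standard errors are the absolute log2 fold change over the square root of F. The p-values set the genotype difference against the spread between the 3 mice of a genotype. That spread was fitted for both genotypes together, although it was wider in UTX TCD than in WT. Replicates were compared by chi-square over genes, and none looked like a duplicate, since the statistic per degree of freedom was 7.01 or more in every pair. On simulated counts the fit recovered 79% of 100 genes changed by 1 on the log2 scale, 14% of 100 changed by 0.4 and 0.128% of unchanged genes. The simulation changed few of its 4097 genes and gave both genotypes the same spread, unlike the data, so these shares may not hold there.

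The alternatives were RLE, upper-quartile and gap-centred scaling (which puts the empty point of the fold changes, at 0.075, at 0), DESeq2 1.42.0, no low-count filter, the replicate number as a block, every protein-coding gene of the reference (21900) counted as a test, and each library left out. Positions, exon lengths (the union over all transcripts), snoRNA hosts and overlaps come from GENCODE M21 (GRCm38), and the promoters from RefSeq (GRCm38.p6). The last 20 bases of 57 of the 59 member windows lie in a GENCODE transcript of their gene.

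The members and gene lists were chosen with earlier results of these data known. The rule for values in every library took a panel of nucleolar genes, the 5 lowest and highest called members without overlap, the member of each role with most counts, and up to 3 called genes per other list. Values of Polr1d, Rpl29, Rpl7l1, Nop53, Rps27, Rps7 and Rps13 were added after they were seen.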

Additional observations from a re-analysis of the deposited data

How the results depend on the processing

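The negative sign held in 62 of 68 members under every setting, and no called gene named here changed sign. The balance over all tested genes did turn over, from 1111 that fell and 1692 that rose to 1832 and 1547 with gap-centred scaling. Without the low-count filter no count moved by more than 1.5 times. With RLE scaling the genes that fell were 13 of the 56 members without Rpl or Rps names, 6 small subunit factors, 0 polymerase I subunits, 0 small nucleolar ribonucleoprotein genes and 26 other biogenesis genes. With upper-quartile scaling they were 15 members, 11 of the 56, 6 small subunit, 5 large subunit, 0 polymerase I, 0 small nucleolar ribonucleoprotein, 20 other biogenesis and 725 of all tested genes, and 2 members rose (1 large subunit factor, so 1 of the 56, and 1 ribosomal protein gene). With gap-centred scaling 51 members fell, 46 of the 56, 21 small subunit, 17 large subunit, 4 polymerase I, 2 small nucleolar ribonucleoprotein, 2 chaperone, 5 MYC and mTOR, 82 other biogenesis (0 rose) and 1832 of all tested genes (1547 rose). In DESeq2 3 members rose (1 large subunit factor, so 1 of the 56, and 2 ribosomal protein genes) and 0 polymerase I subunits fell. With every protein-coding gene counted as a test, 2 members fell (2 of the 56, both small subunit), with 0 large subunit, 0 polymerase I, 0 small nucleolar ribonucleoprotein and 0 ribosomal protein genes, 2 other biogenesis genes (0 rose), 1 MYC and mTOR gene (1 rose), and 296 of all tested genes (630 rose). Leaving out each library in turn, 2 to 48 members fell and 0 to 6 rose, 2 to 43 and 0 to 1 of the 56, 2 to 20 small subunit, 0 to 15 large subunit (0 to 1 rose), 0 to 3 polymerase I, 0 to 3 small nucleolar ribonucleoprotein, 0 to 2 chaperone and 0 to 6 ribosomal protein genes (0 to 5 rose), 3 to 79 other biogenesis genes (0 to 1 rose), 2 to 5 MYC and mTOR genes (2 to 3 rose), and 351 to 1458 of all tested genes (730 to 1824 rose). The causes of these moves were not tested.

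Same-numbered WT and UTX TCD libraries had correlations of 0.28, -0.28 and 0.18 in their deviations from the group means. Pairs with different numbers ran from -0.42 to 0.20. With 3 libraries per genotype these values cannot decide whether same-numbered samples share more than a number. With the replicate number as a block, 30 members fell, with 0 polymerase I subunits and 2 small nucleolar ribonucleoprotein genes.

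What limits these values is the selection of the table and the 3 mice per genotype. A gene that did not pass is not shown to be unchanged. The simulated recovery of 14% at 0.4 on the log2 scale does not give the share found here, since few genes were changed in that simulation. Library depth is unknown.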
